A study of Mus musculus with 4 samples.

Results

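Epithelial cells are held together by tight junctions, adherens junctions, desmosomes and gap junctions, and mouse embryonic stem cells (ESCs) grow as compact epithelial colonies. The 10 genes described here serve this state at different levels: *Esrp1* and *Esrp2* encode epithelial splicing regulators, *Rab25* a GTPase of the RAB11 family that recycles membrane proteins, *Grhl2* and *Ovol1* transcription factors of epithelia, *Cdh1* E-cadherin, *Epcam* an adhesion molecule, and *Cldn4*, *Cldn6* and *Cldn7* claudins of the tight junction. They are 10 of 17958 gene symbols in the data, taken by symbol. They were chosen by their role and with measured values known, since the falls of *Esrp1* and *Rab25* in KO libraries led to the group, so the difference of each of the 10 between KO and WT is a description and carries no test. The question put to the other genes was whether those falls extended to the genes of cell junctions.

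RNA-seq with ribosomal RNA depletion was performed on 2 WT and 2 *Bmal1* KO libraries. The KO cells come from a single CRISPR-Cas9 line that carries a frameshifting deletion in *Arntl*, the gene that encodes the clock transcription factor BMAL1. Both groups are undifferentiated, and ESCs in the study were grown on gelatin with serum and leukaemia inhibitory factor. Separate clones or cultures within a group are not named in the labels, so the genotype cannot be told apart from the line or the culture. The p-values rest only on the spread between 2 libraries a group, which the test drew towards that of other features of like abundance.

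The deposited values are FPKM, the fragments of a feature scaled by its length and by the size of its library. Library depth is therefore unknown, and only the replicates show the precision. *Arntl* was 6.05 and 6.29 FPKM in WT and 5.95 and 5.92 FPKM in KO, a log2 fold change of -0.06 in the edited gene that did not pass the test (adjusted p = 0.75, limma). These are RNA values, and the paper reported complete loss of the BMAL1 protein in the KO line by Western blot. The Y-linked genes *Ddx3y* and *Eif2s3y* were at 0.235 to 2.04 FPKM in WT and at 16.4 to 53.1 FPKM in KO, so the 2 groups also differed in Y-linked transcripts. The share of FPKM on features without a symbol was 26.8% and 37.3% in WT and 19.0% and 18.1% in KO. The 10 ESC markers summed to 7248 and 7080 FPKM in WT and to 6938 and 6507 FPKM in KO, with *Dppa5a*, *Pou5f1* and *Zfp42* the highest. At an adjusted p under 0.05 in limma, *Tdgf1* and *Utf1* were lower and *Fgf4* was higher. Their log2 fold changes were -0.36, -0.43 and 0.30, and the other 7 ESC markers did not pass the test. The sums of 10 fibroblast markers were 1.91 to 3.69 FPKM and those of 10 primitive endoderm markers 11.9 to 13.0 FPKM over the 4 libraries, with *Thy1* and *Lama1* the highest tested ones. Of the fibroblast markers 7 were in the data and 1 was tested, and of the endoderm markers 10 and 3. Of the trophoblast markers 8 were in the data and 3 were tested. The 10 trophoblast markers, of which *Tfap2c* is also an epithelial factor, summed to 8.79 and 7.66 FPKM in WT and to 10.6 and 12.4 FPKM in KO, with *Ascl2* and *Tfap2c* higher and *Eomes* lower at an adjusted p under 0.05; without KO replicate 2 that of *Ascl2* was 0.0634. *Ascl2*, at 0.429 and 0.419 FPKM in WT, reached the mean of 0.5 FPKM needed for a test only through KO. The part of all these differences in the results was not tested. In bulk RNA, fewer cells that express a gene and less RNA per cell cannot be told apart.

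Promoter sequences are shown for the 4 members the claudin, adhesion and RAB25 results turn on. They are the 250 bases before the RefSeq start in GRCm38.p6, each 5′ to 3′ on the strand of its gene. *Rab25* and *Cldn7* were lower in KO, *Epcam* was lower by less, and *Cldn4* overlapped between the groups.
Rab25, chr3:88548280-88548529, minus strand: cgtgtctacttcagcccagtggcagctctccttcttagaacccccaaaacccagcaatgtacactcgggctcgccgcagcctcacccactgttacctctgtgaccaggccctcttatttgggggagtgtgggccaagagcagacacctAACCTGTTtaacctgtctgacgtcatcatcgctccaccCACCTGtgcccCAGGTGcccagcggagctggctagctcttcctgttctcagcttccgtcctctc
Cldn7, chr11:69964529-69964778, plus strand: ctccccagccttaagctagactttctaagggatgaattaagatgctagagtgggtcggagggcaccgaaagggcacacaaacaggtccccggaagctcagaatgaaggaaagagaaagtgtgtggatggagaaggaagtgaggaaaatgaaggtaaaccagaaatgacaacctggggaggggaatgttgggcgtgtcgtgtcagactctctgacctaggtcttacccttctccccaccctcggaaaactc
Epcam, chr17:87635729-87635978, plus strand: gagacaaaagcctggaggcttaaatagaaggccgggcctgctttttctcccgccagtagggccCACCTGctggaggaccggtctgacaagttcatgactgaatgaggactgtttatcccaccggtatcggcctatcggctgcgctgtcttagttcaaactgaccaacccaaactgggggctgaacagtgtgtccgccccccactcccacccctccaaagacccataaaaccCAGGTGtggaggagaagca
Cldn4, chr5:134946935-134947184, minus strand: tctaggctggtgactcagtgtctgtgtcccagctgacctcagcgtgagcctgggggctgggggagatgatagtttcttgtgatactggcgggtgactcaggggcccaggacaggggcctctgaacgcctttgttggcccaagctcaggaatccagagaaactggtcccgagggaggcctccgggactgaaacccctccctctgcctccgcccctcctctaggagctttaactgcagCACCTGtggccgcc
Capitals mark matches, on either strand, to the grainyhead motif AACCNGTT or to CACCTG, the E2-box that SNAI and ZEB repressors read. The *Rab25* window held 1 grainyhead match, 102 bases before the start, and 2 E2-boxes, 64 and 53 bases before it. The *Epcam* window held 2 E2-boxes and the *Cldn4* window 1, whereas the *Cldn7* window held neither motif. *Cldn6*, whose window is not printed, held 1 E2-box 93 bases before its start. No match overlapped another. The E-box CACGTG, which the heterodimer of BMAL1 and CLOCK binds, was found in none of these 5 windows, nor at a second annotated start of *Cldn7*, which held 2 E2-boxes. Over all 32851 RefSeq promoter windows of the same length, the E-box occurred in 6.02%, the grainyhead motif in 1.79% and the E2-box in 17.2%. These are letters found in a window, not measured binding.

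In WT ESCs the 10 genes spanned from below 1 to over 100 FPKM, a scale that corrects for transcript length. *Cdh1* was the highest at 147 ± 3.08 FPKM (SD, n = 2), followed by *Epcam* at 95.6 ± 3.58 FPKM and *Cldn4* at 82.4 ± 5.41 FPKM. A second tier held *Esrp1* at 15.2 ± 0.313, *Cldn6* at 13.9 ± 2.3, *Rab25* at 13.4 ± 0.332, *Cldn7* at 12.9 ± 2.31 and *Grhl2* at 11.6 ± 0.444 FPKM. Within this tier each gene differed from the next by less than the larger of their SDs, although *Esrp1* was above *Rab25* and *Rab25* above *Grhl2* in both WT libraries. *Esrp2* followed at 7.56 ± 0.378 FPKM, and *Ovol1* was the lowest at 0.602 ± 0.111 FPKM. Thus undifferentiated ESCs carried transcripts of the splicing regulators, of *Rab25* and of the adhesion genes, and little of *Ovol1*.

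**Figure D1:**
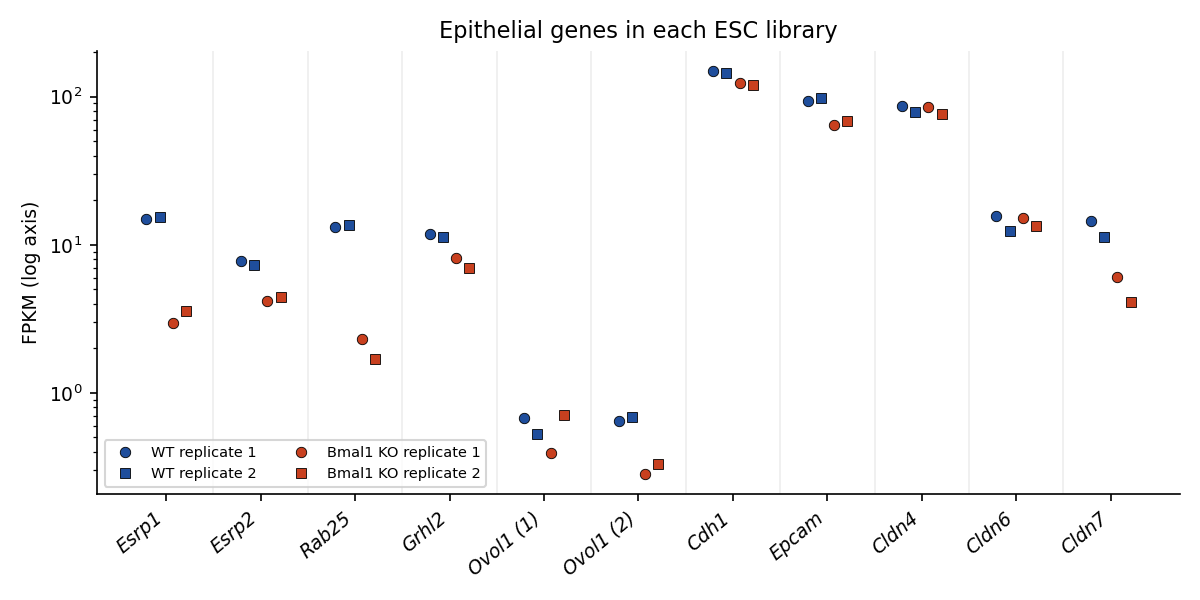
FPKM of the 10 epithelial genes in each library on a log axis, with circles for replicate 1 and squares for replicate 2 of WT (blue) and *Bmal1* KO (red) ESCs. *Esrp1*, *Rab25* and *Cldn7* are well separated between the groups, whereas *Cldn4*, *Cldn6* and the first *Ovol1* feature overlap. *Ovol1* has 2 features, drawn apart.

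Fold changes are KO against WT on the scale of log2(FPKM + 0.1), which understates changes of low genes. Of the 10 genes, 7 had both KO libraries below both WT libraries, 0 had both above and 3 overlapped. Over the 12990 features tested, the share with both KO libraries below was 31.7% and the share with both above 27%. The test across all features called 3 members lower, namely *Rab25*, *Esrp1* and *Cldn7*, requiring an adjusted p below 0.05 together with more than a 2-fold change, and it called 0 higher. The same call held for 1.42% of all features in the lower and 2.72% in the higher direction. Since this contrast chose the members, nothing is read from these counts. The median log2 fold change of the 10 was -0.56, and that of all tested features was -0.02.

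*Esrp1*, which directs the epithelial pattern of alternative splicing, lies on the minus strand of chromosome 4 from 11331933 to 11386783 of GRCm38, with 7 annotated transcripts. It was 15.0 and 15.5 FPKM in WT and 2.97 and 3.59 FPKM in KO. The KO libraries held 21.5% of the WT mean, a log2 fold change of -2.19 (SE 0.12). *Esrp2*, its paralog, was 7.83 and 7.29 FPKM in WT and 4.17 and 4.41 FPKM in KO, with a log2 fold change of -0.80 (SE 0.11). Both KO libraries were below both WT libraries for each paralog, and *Esrp1* differed by the larger amount. The *Esrp2* value is less certain: its feature spans 79441 bases of chromosome 8, against 6656 bases for the gene, and has the same coordinates as *Nfatc3* and *1810019D21Rik*. *Nfatc3*, which overlaps *Esrp2* by 219 bases, was 17.2 and 16.6 FPKM in WT and 16.5 and 17.0 FPKM in KO.

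The neighbours of *Esrp1* were also lower in KO. Within 1 Mb of *Esrp1*, 20 other features were tested, and 16 of them (80%) had both KO libraries below both WT libraries, while 1 had both above. Over all tested features 31.7% had both below and 27% both above. Of the 20, 15 passed the test at an adjusted p under 0.05 in the lower direction and 0 in the higher direction, with a median log2 fold change of -0.76. The lower features were contiguous: from *Ndufaf6* to *Fam92a*, chromosome 4 from 11051046 to 12172015, all 17 tested features including *Esrp1* had both KO libraries below both WT libraries. The 16 others ranged from -1.64 to -0.45 on the log2 scale with a median of -0.84, which is 55.8% of WT, and *Esrp1* was below them all. Among them were *1110037F02Rik*, at 12.7 and 13.2 FPKM in WT and 5.31 and 5.89 FPKM in KO, and *Ndufaf6*, an assembly factor of mitochondrial complex I, at 12.6 and 12.6 FPKM in WT and 7.18 and 7.56 FPKM in KO. The cyclin gene *Ccne2*, which has 2 features, was 4.29 and 6.01 FPKM in WT and 1.39 and 1.99 FPKM in KO at one of them, with a log2 fold change of -1.55 (adjusted p = 0.0153, limma), and the other had -0.86.

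The run ended on both sides at features without this difference. *Plekhf2*, the last tested feature before it, was 27.2 and 29.4 FPKM in WT and 31.2 and 34.7 FPKM in KO, with a log2 fold change of 0.22. The tested features after it were 2 without a symbol, with log2 fold changes of 0.27 and 0.08, and *Otud6b*, with -0.10. Along all chromosomes the tested features formed 2599 such runs, with a median length of 1 feature, and the run around *Esrp1* was the longest, before one of 9 features on chromosome 18. Some features share coordinates, such as *Ccne2* and *Ints8*, so the 17 are not independent, and *Gem*, which lies inside the run at 0.0795 to 0.258 FPKM, was too low for a test. The run was drawn from the values themselves after they were seen and is a description; its part in the value of *Esrp1* was not tested, and gene copy number was not measured in these RNA libraries.

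*Rab25*, on the minus strand of chromosome 3 from 88542029 to 88548279, had the largest difference of the 10 genes. It was 13.2 and 13.7 FPKM in WT and 2.29 and 1.70 FPKM in KO, 14.9% of the WT mean, with a log2 fold change of -2.71 (SE 0.16). Its neighbours did not share this difference. Its closest features, *Mex3a* and *Lamtor2*, lie 635 and 1540 bases away and had log2 fold changes of 0.25 and -0.08, and 0 of the 6 nearest features with a symbol passed the test. Within 1 Mb, 60 features were tested, of which 6 were lower and 5 higher at an adjusted p under 0.05, with a median log2 fold change of -0.08.

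**Figure D2:**
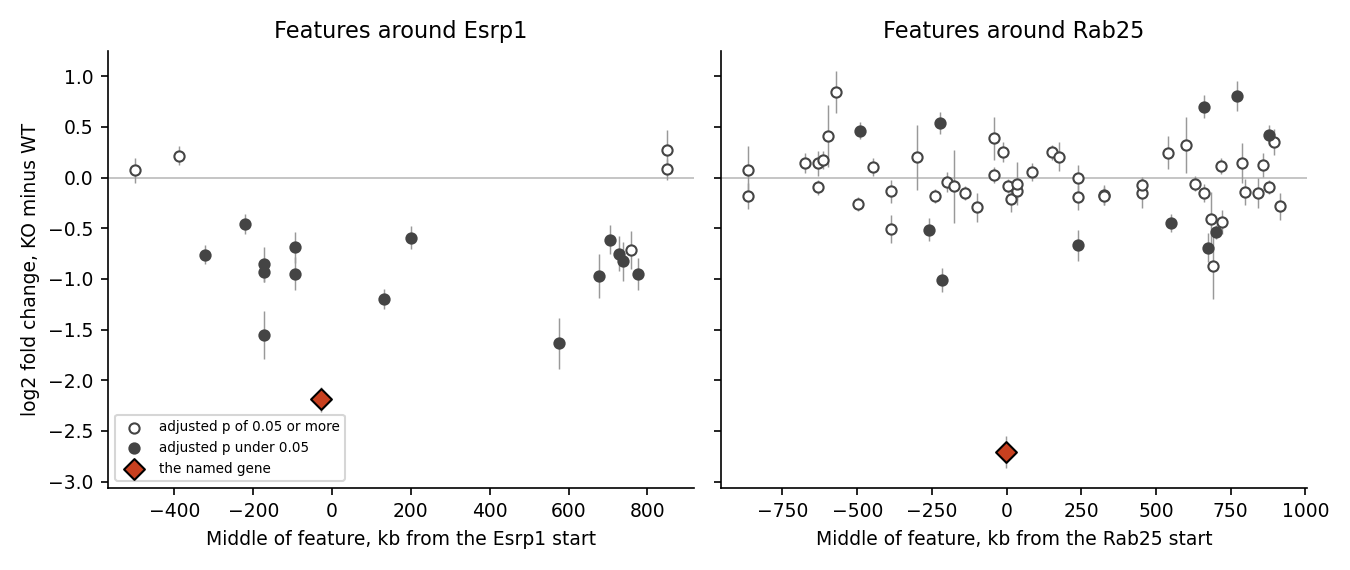
Log2 fold change of FPKM + 0.1, KO minus WT, of each tested feature within 1 Mb of *Esrp1* (left) and *Rab25* (right) against the distance of its middle from the start of the gene in kb. Bars are SE, filled points have an adjusted p under 0.05, and the diamond is the named gene. Around *Esrp1* 16 of 20 features lie below 0 in a contiguous block, whereas those around *Rab25* scatter about 0.

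The same window was drawn around the other 8 genes. The share of features with both KO libraries below both WT libraries ran from 14.3% near *Cldn6* to 42.1% near *Epcam*, against 31.7% of all tested features. The medians of the windows lay between -0.10 and 0.07 on the log2 scale. *Esrp2* and *Cdh1* lie 466376 bases apart on chromosome 8, and the 10 genes together lie on 8 chromosomes. These shares are below the 80% found around *Esrp1*; the difference itself was not tested.

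*Grhl2*, a grainyhead factor that keeps junction genes active in epithelia, was 11.9 and 11.3 FPKM in WT and 8.13 and 6.97 FPKM in KO, with a log2 fold change of -0.62 (SE 0.11). Its groups did not overlap. *Ovol1*, a repressor of mesenchymal genes, has 2 features that share their coordinates on chromosome 19 with *Ap5b1*. The first was 0.680 and 0.524 FPKM in WT and 0.395 and 0.714 FPKM in KO, and the groups overlapped. The second was 0.643 and 0.689 FPKM in WT and 0.283 and 0.328 FPKM in KO, and it stood below the minimum mean of 0.5 FPKM for a test. Summed, they gave 1.32 and 1.21 FPKM in WT and 0.678 and 1.04 FPKM in KO, and these groups did not overlap. The log2 fold change was -0.14 (SE 0.35) for the first feature and -0.54 for the sum. That of the first feature was -0.50 without KO replicate 2, 0.02 without WT replicate 1 and 0.22 without KO replicate 1.

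The adhesion genes differed less. *Cdh1* was 149 and 145 FPKM in WT and 123 and 120 FPKM in KO, with a log2 fold change of -0.28 (SE 0.07), 82.5% of WT. *Epcam*, which binds claudins at the membrane, was 93.1 and 98.1 FPKM in WT and 64.9 and 69.1 FPKM in KO, with a log2 fold change of -0.51 (SE 0.08). For both, each KO library lay below each WT library.

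The 3 claudins did not share a direction. *Cldn7* was 14.5 and 11.3 FPKM in WT and 6.03 and 4.08 FPKM in KO, with a log2 fold change of -1.35 (SE 0.22), 39.2% of WT. *Cldn4* was 86.2 and 78.5 FPKM in WT and 85.1 and 76.1 FPKM in KO, and *Cldn6* was 15.5 and 12.3 FPKM in WT and 15.1 and 13.5 FPKM in KO. The groups of *Cldn4* and *Cldn6* overlapped, with log2 fold changes of -0.03 (SE 0.09) and 0.04 (SE 0.14). Of the 6 features nearest to *Cldn7*, 1 passed the test, and it was higher in KO: the merged *Ctdnep1* and *Gabarap* feature, with a log2 fold change of 0.53 (adjusted p = 0.0112, limma).

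Over the 4 libraries, the centred log2 profiles nearest to that of *Esrp1* were those of *Meis2*, a homeobox factor, at a Euclidean distance of 0.04, *Tgm3* at 0.18, *Tmem30b* at 0.29, *Sdr42e1* at 0.35 and *Prss35* at 0.39. Nearest to *Rab25* were *Tmem40* at 0.37, *Dpp4* at 0.41, *Sdr42e1* at 0.44, *Tgm3* at 0.55 and *Ldhc* at 0.66. *Sdr42e1* and *Tgm3*, an epidermal transglutaminase, were in both sets, and *Esrp1* and *Rab25* were 0.70 apart. With 4 libraries this likeness describes mainly the size of the fall.

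To ask whether the falls extended to junctions, 117 junction genes outside the 10 were listed, of which 99 were in the data and 66 had a tested feature. Of the 66, 9 were lower and 2 higher in KO at an adjusted p under 0.05, 13.6% and 3.03%. Over all tested features 5.6% were lower and 6.85% higher by the same rule. With the further requirement of a change over 2-fold, 2 junction genes were lower and 0 higher, against 1.42% and 2.72% of all tested features. Without WT replicate 1 these counts were 1 and 1, and without WT replicate 2 they were 3 and 0. Both KO libraries lay below both WT libraries for 32 of the 66 (48.5%) and above for 20 (30.3%), against 31.7% and 27% of all tested features. The median log2 fold change was -0.17, against -0.02 for all tested features. The other 55 junction genes did not pass the test. The lowest log2 fold change among the junction genes was -1.37, against -2.19 for *Esrp1* and -2.71 for *Rab25*. It was that of *Ppl*, which reached the mean of 0.5 FPKM needed for a test only through its WT libraries. *Esrp1* and *Rab25* were chosen for their falls, so this is a description, and the difference between the junction share and that of all features was not tested.

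**Figure D3:**
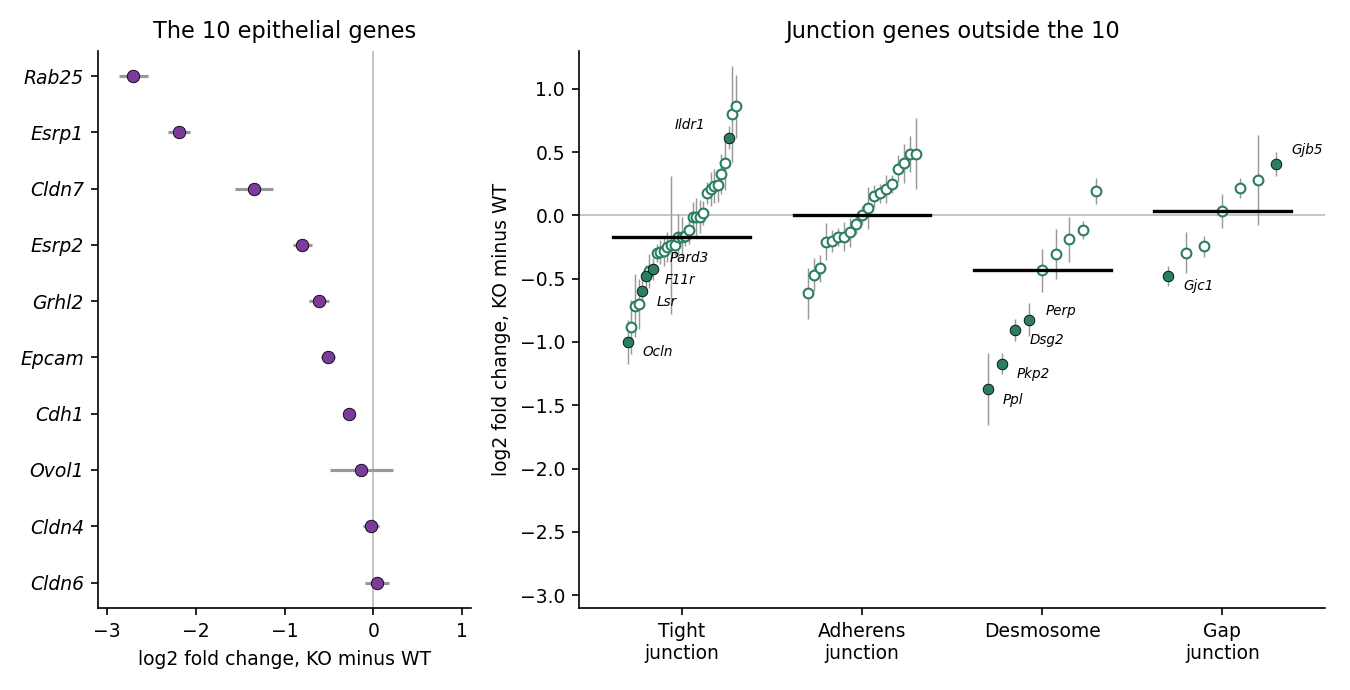
Log2 fold change of FPKM + 0.1, KO minus WT, with SE, for the 10 epithelial genes (left) and the 66 tested junction genes outside them by class (right), where filled points have an adjusted p under 0.05 and lines are class medians. *Rab25* and *Esrp1* lie lower than any junction gene, and the desmosome class has the lowest median, -0.44.

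Desmosome genes were the lowest class. Desmosomes anchor intermediate filaments, and 9 of 18 listed genes were tested, with a median log2 fold change of -0.44. At an adjusted p under 0.05 in limma, 4 (44.4%) were lower and 0 higher, against 5.6% and 6.85% of all tested features. Both KO libraries lay below both WT libraries for 8 (88.9%), against 31.7% of all tested features. The difference between this class and all features was not tested. *Pkp2*, a plakophilin of the desmosomal plaque, was 26.3 and 26.2 FPKM in WT and 11.6 and 11.6 FPKM in KO, with a log2 fold change of -1.17 (SE 0.08; adjusted p = 0.0023, limma). *Dsg2*, a desmosomal cadherin, was 18.5 and 19.3 FPKM in WT and 10.1 and 9.97 FPKM in KO, with a log2 fold change of -0.90 (adjusted p = 0.0049, limma). *Perp*, a desmosomal membrane protein, was 9.80 and 11.4 FPKM in WT and 5.46 and 6.44 FPKM in KO, with a log2 fold change of -0.82 (adjusted p = 0.0174, limma). In none of these did the groups overlap. *Ppl*, which encodes periplakin, was low throughout, at 0.865 and 0.870 FPKM in WT and 0.253 and 0.296 FPKM in KO, and fell by 1.37 on the log2 scale (adjusted p = 0.0348, limma), or by 0.55 with a pseudocount of 1. *Ppl* reached the mean of 0.5 FPKM needed for a test only through its WT libraries, the group where it was higher. Without KO replicate 1 its adjusted p was 0.0783, and without KO replicate 2 it was 0.0565. *Jup* (plakoglobin), at 43.1 and 37.4 FPKM in WT and 48.6 and 43.2 FPKM in KO, and *Pkp4*, with a log2 fold change of -0.11, did not pass the test.

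Tight junction genes, which seal the space between cells, were mixed. Of 53 listed, 31 were tested, and the median log2 fold change was -0.17. In limma 4 (12.9%) were lower and 1 (3.23%) higher at an adjusted p under 0.05, against 5.6% and 6.85% of all tested features. *Ocln* (occludin) was 2.84 and 2.65 FPKM in WT and 1.20 and 1.46 FPKM in KO, which held 48.4% of the WT mean (adjusted p = 0.0215, limma). In 1 of the alternative settings *Ocln* missed the adjusted p threshold. *F11r* (the adhesion molecule JAM-A) was 31.7 and 29.9 FPKM in WT and 23.2 and 20.9 FPKM in KO, with a log2 fold change of -0.48 (adjusted p = 0.0264, limma). *Lsr*, a protein of tricellular junctions, fell by 0.60 on the log2 scale (adjusted p = 0.0419, limma), and *Pard3*, a polarity protein, fell by 0.42 (adjusted p = 0.0338, limma). In contrast, *Ildr1*, a relative of *Lsr* at the same junctions, was 12.6 and 12.2 FPKM in WT and 19.9 and 18.2 FPKM in KO, with a log2 fold change of 0.61 (adjusted p = 0.0139, limma). Without KO replicate 2 the adjusted p of *F11r* was 0.073 and that of *Lsr* 0.0721, and *Pard3* missed the threshold whichever library was left out, at 0.0575 to 0.114. These 5 genes, and *Perp* and *Gjb5* among the other junctions, were named after their values were seen. *Prkci*, a polarity kinase, and *Jam2*, an adhesion molecule, had log2 fold changes of 0.18 and -0.16 and did not pass the test. *Cldn3*, a claudin outside the 10, was 6.57 and 6.69 FPKM in WT and 5.40 and 4.36 FPKM in KO (adjusted p = 0.0936, limma).

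Adherens junction genes, which link E-cadherin to actin, had 0 genes at an adjusted p under 0.05 in limma among 19 tested of 26 listed. Over all tested features 5.6% were lower and 6.85% higher by this rule. At an unadjusted p under 0.05, 3 were lower and 4 higher, and the median log2 fold change was 0.00. The share of all features at an unadjusted p is not given here, so nothing is read from these unadjusted counts. The catenin genes *Ctnnb1* and *Ctnna1* were the most abundant. *Ctnnb1* was 217 and 217 FPKM in WT and 258 and 258 FPKM in KO, with a log2 fold change of 0.25 (adjusted p = 0.071, limma). *Ctnna1* was 161 and 171 FPKM in WT and 182 and 192 FPKM in KO, with a log2 fold change of 0.18 (adjusted p = 0.188, limma). Each lay higher in both KO libraries, opposite to *Cdh1*. The catenin gene *Ctnnd1* lay lower in both, at 57.0 and 53.8 FPKM in WT and 48.6 and 49.6 FPKM in KO. It did not pass the test either (adjusted p = 0.191, limma). *Ajuba*, an adaptor at the catenins, had a log2 fold change of -0.20.

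Gap junction genes, whose connexins form channels between cells, had 7 tested members of 20 listed. *Gjc1* was 29.0 and 28.2 FPKM in WT and 20.9 and 20.1 FPKM in KO, with a log2 fold change of -0.48 (adjusted p = 0.0184, limma). In 1 of the alternative settings *Gjc1* missed the adjusted p threshold. *Gjb5* was 10.3 and 9.77 FPKM in WT and 13.8 and 12.9 FPKM in KO, with a log2 fold change of 0.41 (adjusted p = 0.0443, limma). With any one library left out, the adjusted p of *Gjb5* was 0.0557 to 0.158, at log2 fold changes of 0.36 to 0.45. *Gja1*, a widely expressed connexin, was 31.7 and 34.5 FPKM in WT and 27.7 and 28.0 FPKM in KO and did not pass the test (adjusted p = 0.111, limma).

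**Figure D4:**
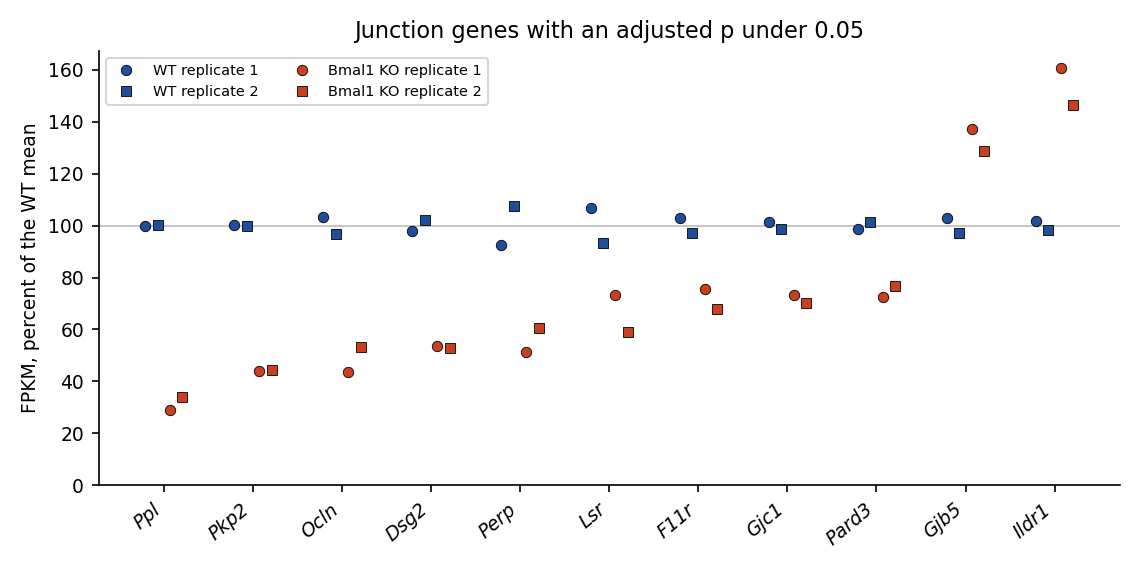
FPKM of the 11 junction genes with an adjusted p under 0.05, as a percent of the mean of the 2 WT libraries, in each library (blue WT, red KO; circles replicate 1, squares replicate 2). The 9 lower genes are ordered by the size of their change from *Ppl* on the left, and *Gjb5* and *Ildr1* are the 2 higher genes.

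Other genes of the epithelial state went both ways. Of 52 listed transcription factors, membrane proteins and keratins, 33 were tested, with a median log2 fold change of -0.31. At an adjusted p under 0.05 in limma, 11 (33.3%) were lower and 7 (21.2%) higher. Over all tested features 5.6% were lower and 6.85% higher by the same rule, and the difference was not tested. *Grhl1*, a relative of *Grhl2*, was 4.68 and 4.94 FPKM in WT and 2.08 and 2.07 FPKM in KO, with a log2 fold change of -1.17 (SE 0.13; adjusted p = 0.0063, limma). *Tmem30b*, a subunit of lipid flippases, was 4.19 and 4.02 FPKM in WT and 0.959 and 1.06 FPKM in KO, with a log2 fold change of -1.92 (SE 0.15; adjusted p = 0.0034, limma). For both genes the groups were well separated.

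The opposite was seen for *Cd24a*, a surface glycoprotein of epithelia and progenitors, which was 10.3 and 10.9 FPKM in WT and 34.9 and 37.8 FPKM in KO, with a log2 fold change of 1.77 (SE 0.09; adjusted p = 0.0013, limma). *Krt19*, a simple keratin, was 0.411 and 0.449 FPKM in WT and 1.90 and 1.00 FPKM in KO, with a log2 fold change of 1.49 (adjusted p = 0.0445, limma). Without KO replicate 1 its log2 fold change was 1.06, and the smallest over the alternative settings was 0.75. Its result was weaker in 4 of these settings, so the call depends on that library and on the processing. *Krt19* reached the mean of 0.5 FPKM needed for a test only through its KO libraries. *Klf4*, also a pluripotency factor, fell by 0.46 on the log2 scale, *Tfcp2l1* had a log2 fold change of 0.39, and *Klf5* did not pass the test, at 0.07. *Spint2*, a protease inhibitor that protects EPCAM and claudins, and *Ezr* (ezrin) fell by 0.36 and 0.32, and *Spint1* had a log2 fold change of -0.31 without passing the test. *Spint2*, *Ezr* and *Tfcp2l1* passed the adjusted p threshold but changed by less than 2-fold, so they were not called. *Spint2* and *Ezr* no longer passed it with any one library left out. *Tfcp2l1* no longer passed it without WT replicate 2, KO replicate 1 or KO replicate 2.

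Among 26 other splicing regulators, 22 were tested, with a median log2 fold change of -0.09. Of these, 0 were lower and 2 (9.09%) higher at an adjusted p under 0.05 in limma. At an unadjusted p under 0.05, 3 were lower and 4 higher. By the adjusted rule 5.6% of all tested features were lower and 6.85% higher. The most abundant, *Hnrnpa1*, *Hnrnpf* and *Hnrnpm*, had log2 fold changes of -0.22, -0.15 and -0.10 and did not pass the test. Of 18 genes whose transcripts are known to be spliced under ESRP control, 16 were tested. Here 0 were lower and 2 (12.5%) higher by the adjusted rule in limma, or 1 and 2 at an unadjusted p under 0.05. The share of all features at an unadjusted p is not given here, so nothing is read from the unadjusted counts of either list. *Fgfr2*, the classical ESRP target, was 0.184 and 0.172 FPKM in WT and 1.07 and 1.08 FPKM in KO, with a log2 fold change of 2.08 (SE 0.29; adjusted p = 0.0119, limma), or 0.82 with a pseudocount of 1. It reached the mean of 0.5 FPKM needed for a test only through its KO libraries, the group where it was higher. *Nf2*, which encodes merlin, was 50.6 and 48.8 FPKM in WT and 82.9 and 74.7 FPKM in KO, with a log2 fold change of 0.66 (adjusted p = 0.0094, limma). *Enah* and *Ctnnd1*, other ESRP targets, had log2 fold changes of -0.04 and -0.17. One value per gene holds no information on isoforms, so splicing itself was not measured here.

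Of 26 genes of RAB11-type recycling, 20 were tested, with a median log2 fold change of -0.05. In limma 2 (10%) were lower and 1 (5%) higher at an adjusted p under 0.05, against 5.6% and 6.85% of all tested features. *Exoc6b*, an exocyst subunit, was 5.94 and 5.73 FPKM in WT and 11.8 and 12.0 FPKM in KO, with a log2 fold change of 1.01 (adjusted p = 0.0048, limma). *Myo5a* and *Myo5c*, myosins that carry recycling endosomes, fell by 0.82 and 0.65 on the log2 scale. *Rab11a*, the ubiquitous relative of *Rab25*, was 34.1 and 36.4 FPKM in WT and 29.2 and 31.3 FPKM in KO, with a log2 fold change of -0.22 (adjusted p = 0.146, limma). *Rab8a* and *Rab10*, other abundant RAB GTPases of this route, had log2 fold changes of -0.06 and -0.01.

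Factors and markers of mesenchymal transition had 7 tested genes. At an adjusted p under 0.05 in limma, 3 (42.9%) were higher in KO and 1 (14.3%) was lower. Over all tested features 6.85% were higher and 5.6% lower, and the difference was not tested. *Zeb1*, a repressor of *Cdh1* and *Esrp1* in other cells, was 1.11 and 1.33 FPKM in WT and 2.47 and 2.72 FPKM in KO, *Fn1* and *Vim* had log2 fold changes of 0.50 and 0.45, and *Snai3* fell by 1.23. With no trend in the variance *Fn1* and *Snai3* had adjusted p of 0.0659 and 0.0701, and with no filter on low values *Zeb1* and *Snai3* had 0.0543 and 0.0807. The test of *Vim* was lost without WT replicate 1, KO replicate 1 or KO replicate 2, at adjusted p of 0.0514 to 0.0849.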

How the data were processed

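RNA of 2 WT and 2 *Bmal1* KO mouse ESC libraries was analysed. The authors depleted ribosomal RNA, used TopHat 2.1.1, running Bowtie2 2.3.0, for alignment to GRCm38, and deposited the FPKM that Cufflinks 2.2.1 estimated. Reads shared by overlapping features were split by that estimate. Start coordinates were raised by 1 to count from 1, and gene positions came from GENCODE M21.

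The 12990 of 19645 features with a mean of at least 0.5 FPKM were compared as log2(FPKM + 0.1) in limma 3.58.1 (R 4.3.3), with a moderated test, a variance trend and Benjamini-Hochberg adjustment over all tested features, after the fit had been tested on simulated data. This fit gave every adjusted p printed without a named alternative. Those given with a library left out, with no trend in the variance or with no filter on low values came from limma fits with that change. Calls needed an adjusted p below 0.05 and more than a 2-fold change. An exact permutation test of 2 against 2 libraries cannot go below p = 0.333, so none was used. The other steps used Python 3.11.15, pandas 2.3.3, numpy 2.4.6, scipy 1.17.1 and matplotlib 3.10.9.

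The members, the gene lists and the tests were chosen with earlier results of these data known. The genes named were the 10 members, *Arntl*, called genes of each list (at most 6), the 3 most abundant others of each list, the 3 nearest features with a symbol on each side of *Esrp1*, *Rab25* and *Cldn7*, and the 5 nearest profiles to *Esrp1* and *Rab25*. Genes beside these, the windows of 1 Mb and the run on chromosome 4 were chosen after the values were seen. Promoter windows of 5 of the 10 members were in the RefSeq table used. Some genes that this rule names are not reported here. The other experiments of the study are not analysed here.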

Additional observations from a re-analysis of the deposited data

How the results depend on the processing

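The 10 members and the junction counts were recomputed under 9 alternatives and without each of the 4 libraries. Of 66 tested junction genes, 9 were lower in KO, 5 with no filter on low values and 22 with the replicate block. Leaving out 1 library gave 6 to 10. Of the 19 adherens junction genes, 0 passed without the block, and 5 lower and 6 higher passed with the replicate block. The junction genes more than 2-fold lower were 2, and 1 with a pseudocount of 1 or a mean FPKM of at least 1; with no filter on low values 1 was more than 2-fold higher. The 2 higher junction genes became 11 with the replicate block and ranged from 1 to 3 with 1 library left out, with 1 without WT replicate 2 or KO replicate 1. The 7 higher genes among the other epithelial genes ranged from 4 to 6 with 1 library left out, with 4 without KO replicate 1. A pairing by replicate number was not established: the deviations of WT and KO libraries with the same number correlated across features with a Pearson r of 0.07 and a Spearman rho of 0.39, and only 2 pairs exist. Leaving out junction features that share coordinates or symbols, an alternative chosen after seeing the data, left 9 lower and 2 higher of 56. The junction median lay between -0.19 and -0.08. On the log2 scale *Esrp1* stayed between -2.32 and -1.93, *Rab25* between -2.91 and -2.28 and *Cldn7* between -1.62 and -1.07, with the smallest size of *Esrp1* and *Rab25* at a pseudocount of 1. *Cldn4* and *Cldn6* crossed 0 when 1 library was left out, and *Cldn4* also with quantile normalization. Over all features, a pseudocount of 1 called 85 lower and 146 higher in place of 185 and 353, and leaving out 1 library called 257 to 323 lower and 305 to 497 higher. At an adjusted p under 0.05 alone, 728 lower and 890 higher became 2245 and 1807 with the replicate block, 380 and 571 with no filter on low values and 457 and 708 with no trend in the variance; the cause was not tested.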
